A study of Mus musculus with 6 samples.

Results

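The genes described are 47 mouse genes of protein folding, of 35275 in the deposited table. They were chosen from a list of symbols covering cytosolic heat shock chaperones and the machinery that folds tubulin, and all 47 were found by matching Ensembl identifiers to symbols. The list holds 26 chaperones of the type controlled by heat shock factor 1 (HSF1), 19 tubulin folding genes and 2 heat shock factors. The chaperones include Hspd1 and Hspe1, whose proteins work in mitochondria and not in the cytosol. RNA was measured in epidermal cells of CD1 IGS mouse embryos at stage E16.5 (days of gestation), in 3 K10-spastin libraries and 3 control libraries. The dams were of the K10-rtTA, TRE-H2B-GFP and TRE-Spastin lines and ate doxycycline chow from E14.5, in both groups. The keratin 10 promoter is active in suprabasal cells and drives the activator, which turns on the microtubule-severing enzyme spastin and a fluorescent histone. GFP-positive cells of the back skin were sorted. The labels do not say which transgenes the control embryos carried or how many embryos gave each library, and the p-values therefore cover only the spread among these 6 libraries.

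Heat shock proteins hold unfolded proteins in solution, refold them or pass them on for degradation. HSF1 is held inactive by chaperones in unstressed cells, and under proteotoxic stress it binds inverted repeats of GAA, called heat shock elements, in front of chaperone genes. Newly made tubulin takes another route: prefoldin carries the chain to the TRiC chaperonin, a double ring that folds actin and tubulin, and the tubulin cofactors TBCA to TBCE then join alpha- and beta-tubulin into the heterodimer that microtubules are built from. In the epidermis, suprabasal keratinocytes fill with keratin filaments and move their microtubules to the cell cortex as they differentiate.

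The promoters of the members were searched for the letters that HSF1 recognises. Windows of 300 bases, from 250 before to 50 after the gene start, were taken from RefSeq on build GRCm38.p6 and were found for 40 of the 47 members. The 3-unit element was GAANNTTCNNGAA on one strand or TTCNNGAANNTTC on the other, where N is any base. The 2-unit element was GAANNTTC or TTCNNGAA, each of which reads the same on both strands and lies inside the 3-unit element. Below are 5 windows, 5′ to 3′ on the gene's strand and in lower case, with every match in capitals. Hspb8 and Hsph1 had the largest increases of the set, Hspd1 shares its element with its neighbour Hspe1, and Chordc1 has the longest run of units. Hspa1b is a stress-inducible HSP70 gene, as is Hspa1a.
Hspb8: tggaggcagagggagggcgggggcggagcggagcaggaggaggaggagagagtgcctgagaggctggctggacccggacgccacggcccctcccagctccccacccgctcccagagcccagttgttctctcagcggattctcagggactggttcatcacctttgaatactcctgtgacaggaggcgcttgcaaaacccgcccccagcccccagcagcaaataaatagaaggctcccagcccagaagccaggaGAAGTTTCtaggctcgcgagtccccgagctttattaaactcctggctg
Hsph1: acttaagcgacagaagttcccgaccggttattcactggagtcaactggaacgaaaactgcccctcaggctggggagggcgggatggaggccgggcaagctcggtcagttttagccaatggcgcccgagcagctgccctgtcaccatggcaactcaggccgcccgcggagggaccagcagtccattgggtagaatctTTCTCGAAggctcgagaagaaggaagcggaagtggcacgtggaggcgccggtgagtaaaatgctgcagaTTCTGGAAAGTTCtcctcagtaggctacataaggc
Hspd1: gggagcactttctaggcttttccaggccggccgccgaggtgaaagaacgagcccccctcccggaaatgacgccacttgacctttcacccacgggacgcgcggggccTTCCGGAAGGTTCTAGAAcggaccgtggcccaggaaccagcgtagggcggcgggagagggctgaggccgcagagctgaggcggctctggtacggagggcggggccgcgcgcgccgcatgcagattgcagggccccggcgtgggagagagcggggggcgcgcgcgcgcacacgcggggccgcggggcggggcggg
Chordc1: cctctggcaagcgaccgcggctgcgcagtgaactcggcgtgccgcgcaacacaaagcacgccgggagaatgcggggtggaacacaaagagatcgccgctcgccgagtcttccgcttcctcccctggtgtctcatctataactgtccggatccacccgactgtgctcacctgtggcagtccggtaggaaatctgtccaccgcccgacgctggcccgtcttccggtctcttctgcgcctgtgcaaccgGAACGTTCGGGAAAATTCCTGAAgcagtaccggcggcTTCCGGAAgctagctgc
Hspa1b: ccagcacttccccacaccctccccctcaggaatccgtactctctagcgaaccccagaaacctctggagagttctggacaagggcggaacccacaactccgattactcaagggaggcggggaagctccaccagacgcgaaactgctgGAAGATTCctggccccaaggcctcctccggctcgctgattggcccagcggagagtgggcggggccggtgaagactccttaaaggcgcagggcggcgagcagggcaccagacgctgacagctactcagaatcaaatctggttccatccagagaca
The windows are chr5:116422815-116423114 on the minus strand for Hspb8, chr5:149636266-149636565 on the minus strand for Hsph1, chr1:55087883-55088182 on the minus strand for Hspd1, chr9:18292017-18292316 on the plus strand for Chordc1 and chr17:34959189-34959488 on the minus strand for Hspa1b.

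A 3-unit element was present in 5 of the 22 chaperone genes with a window (22.7%), Hsph1, Hspd1, Hspe1, Dnajb6 and Chordc1. It was present in 0 of the 17 tubulin folding genes with a window, and in 179 of all 27025 genes with a window (0.7%). A 2-unit element was present in 14 of 22 chaperone genes (63.6%), in 3 of 17 tubulin folding genes (17.6%) and in 17.0% of all genes. The 3 tubulin folding genes were Cct2, Cct5 and Cct6a, all subunits of TRiC. In Chordc1 the units ran without a gap over 23 bases, from base -4 to base 19, counting the first base of the gene as 1. In Hspd1 the 18 bases of the element lay at -144 to -127, and the same bases read from the other strand lay at -89 to -72 of Hspe1, since the genes stand head to head. In the Hsph1 window shown, the 3-unit element lay at bases 16 to 28 and a 2-unit element at -54 to -47. From another RefSeq start site of Hsph1 the same elements lay at 37 to 49 and -33 to -26. Hspb8 had a 2-unit element at bases 3 to 10. Hspa1b had its 2-unit element at -104 to -97, and Hspa1a had the same letters at the same distance. A match is a run of letters and not a shown binding site, and the absence of a match refers to these windows alone. Only exact units at this spacing were counted, so elements with imperfect units would have been missed.

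**Figure D1:**
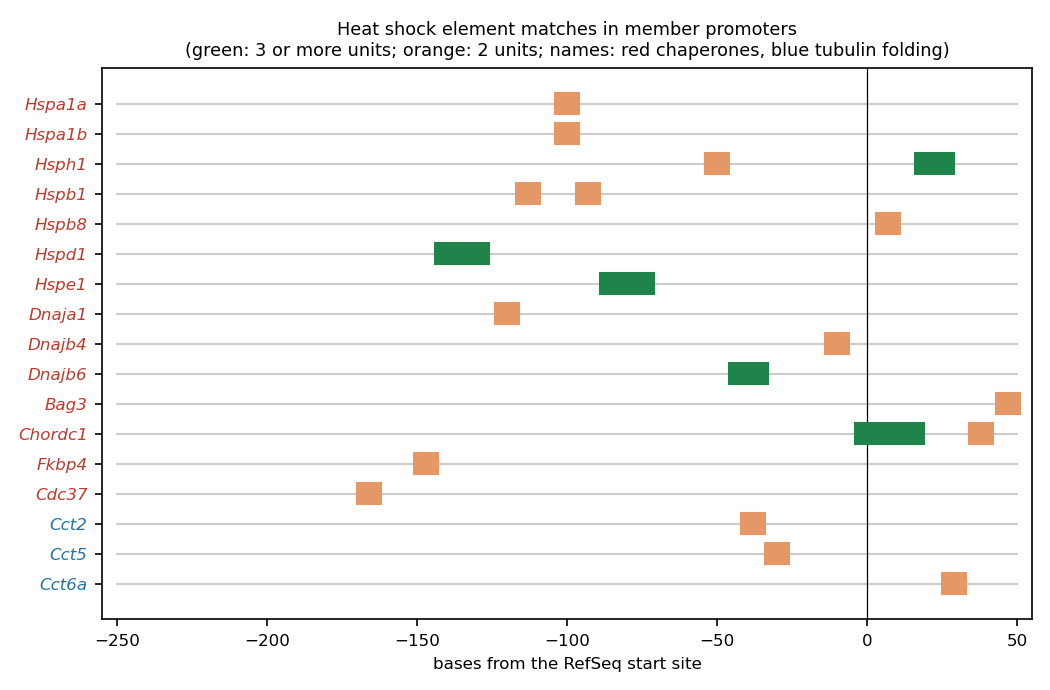
Positions of heat shock element matches in the promoter windows of the members that have one, in bases from the RefSeq start site. For Hsph1 and Dnajb6, which have another window with the same matches, a single window is drawn. Green marks runs of 3 or more units, orange marks 2 units, chaperone genes are named in red and tubulin folding genes in blue. The green marks stand in 5 chaperone genes, and the 3 blue names, Cct2, Cct5 and Cct6a, have orange marks.

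Values are FPKM, fragments scaled to transcript length and library size, as the authors computed them. Library depth, read from the steps between low values, was 16.0 to 22.5 M (mega) fragments, so that 3 fragments in a 1 kb transcript corresponded to 0.134 to 0.187 FPKM. The lowest value of any member was 1.17 FPKM, for Hsf2. All 47 members passed the filter of a mean of at least 1 FPKM, as did 11071 genes in all. Groups were compared with limma on log2(FPKM + 1), a scale on which low genes change less than on FPKM itself, and a gene is said to have risen or fallen at an adjusted p under 0.05 over all genes tested. Changes are K10-spastin minus control and are given with their SE. Spast, the induced gene, was at 1431, 639 and 213 FPKM in K10-spastin libraries 1 to 3, against 21.2, 24.0 and 21.4 FPKM in control libraries 1 to 3. Markers of suprabasal keratinocytes summed to 31270 to 46230 FPKM in K10-spastin and 51690 to 67980 FPKM in control; Krt1 and Krt10 carried the sum, and of the 6 genes 1 fell, 3 had a positive and 3 a negative change. Those of basal keratinocytes summed to 2495 to 4723 FPKM in K10-spastin and 4083 to 7171 FPKM in control, so both layers' RNA was in the sorted cells of both groups. Of the 6 basal genes 2 had a positive and 4 a negative change. Of these 1 fell, Krt15 (log2 change -3.05, limma adjusted p = 0.0269), without overlap. Markers of granular cells summed to 3309 to 14910 FPKM in K10-spastin and 1320 to 5363 FPKM in control, a sum that is mostly Lor, and of the 4 genes 2 rose, Ivl (log2 change 2.54, limma adjusted p = 0.0321) and Cdsn (3.18, limma adjusted p = 0.0243), both without overlap. The single markers were named after their values were seen. In bulk samples, fewer cells of a type and less RNA per cell cannot be told apart.

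Members that passed the test were counted in the chaperones and in the tubulin folding genes, and no test of the difference between these counts was made. Of the 26 chaperones, 7 rose and 2 fell in K10-spastin. Of the 19 tubulin folding genes 0 rose and 0 fell, with 7 at an unadjusted p under 0.05. Among all genes tested, 5.14% rose, 5.90% fell and 31.5% had an unadjusted p under 0.05. The members that rose were Hspb8, Hsph1, Hsp90aa1, Hspa4l, Hspd1, Bag3 and Ptges3, and those that fell were Hspa2 and Dnajb1. The count moved with the scaling of the libraries. Of all 47 members 7 rose and 2 fell as the values were deposited, 21 rose and 2 fell after median-of-ratios scaling, and 8 rose and 4 fell after quantile normalization, against 6.51% and 6.84% of all genes under the first and 5.48% and 8.02% under the second. Of the 26 chaperones, 15 rose and 2 fell after median-of-ratios scaling, and of the 19 tubulin folding genes 6 rose and 0 fell. With array weights 17 chaperones and 9 tubulin folding genes rose, where 13.9% of all genes did. Without K10-spastin 1, 17 members rose and 3 fell, beside 6.24% of all genes in each direction. With the replicate number as a block, 4 rose and 1 fell, beside 2.47% and 1.97% of all genes. Without control 2 or control 3 the members that rose were Hspb8, Hsph1 and Hsp90aa1 alone and 0 fell. Calls were fewer over all 11071 genes too: 142 rose and 70 fell without control 2, and 113 rose and 32 fell without control 3.

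The change was above 0 in 22 of 26 chaperones and in 14 of 19 tubulin folding genes, against 41.6% of all genes tested. The median log2 change was 0.58 in the chaperones and 0.25 in the tubulin folding genes, beside -0.09 over all genes tested. All 3 K10-spastin libraries lay above all 3 control libraries in 15 chaperones and 8 tubulin folding genes, where 15.6% of all genes did so. They lay below in 2 chaperones and 2 tubulin folding genes, where 24.8% of all genes did so. In either direction, 27 of 47 members had groups that did not overlap, against 40.4% of all genes. The chaperone median exceeded the tubulin folding median by 0.34 on the log2 scale, and by 0.25, 0.48 and 0.39 when K10-spastin libraries 1, 2 and 3 were each set against the control mean. Under all alternatives run, this difference of medians was between 0.30 and 0.43. It stayed at 0.338 under the other pseudocounts and filters, median-of-ratios scaling, the changed variance settings and the replicate block. Those settings leave it unchanged or shift both medians nearly alike, so they say little about its stability. Only quantile normalization, array weights and leaving out a library moved it. No test was made of the difference.

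**Figure D2:**
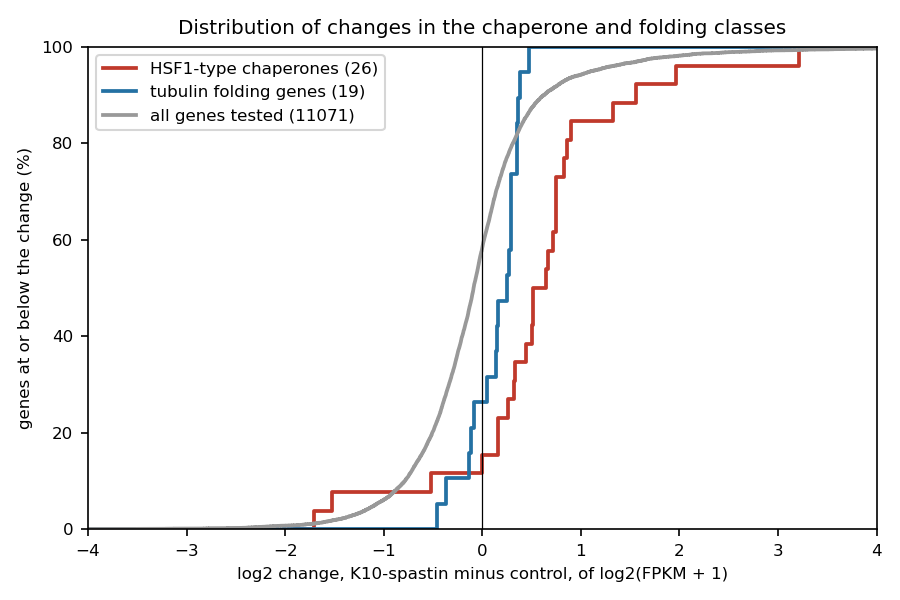
Cumulative share of genes (vertical axis, %) at or below each log2 change, K10-spastin minus control (horizontal axis, shown between -4 and 4), for 26 chaperones, 19 tubulin folding genes and 11071 genes tested. The chaperone curve lies to the right of the tubulin folding curve over most of its length, with medians of 0.58 and 0.25, and has the longer tails, while the curve of all genes has a median of -0.09.

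The transcripts of the heat shock factors did not separate the groups. Hsf1 had 18.6, 33.1 and 26.3 FPKM in K10-spastin and 29.9, 27.5 and 27.8 FPKM in control, a log2 change of -0.16 ± 0.21 (limma adjusted p = 0.655). Hsf2, a related factor that can form trimers with HSF1, averaged 1.70 ± 0.71 FPKM in K10-spastin and 2.63 ± 0.21 FPKM in control (SD, n = 3 each; limma adjusted p = 0.226). HSF1 is mainly controlled on the protein, which was not measured here.

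HSP90 holds kinases, steroid receptors and other clients in a form ready for activation. Hsp90aa1, its stress-inducible form, rose and had 770, 966 and 731 FPKM in K10-spastin, against 286, 291 and 255 FPKM in control, a log2 change of 1.56 ± 0.14 (limma adjusted p = 0.00418). The groups were far apart and each was narrow. Hsp90ab1, the constitutive form and the most abundant member, had 4086, 5191 and 4548 FPKM in K10-spastin and 3365, 3323 and 2967 FPKM in control. Its groups did not overlap, and its log2 change of 0.51 ± 0.14 did not pass (limma adjusted p = 0.0610). The ratio of the inducible to the constitutive transcript within a library does not depend on how the libraries are scaled. It was 0.188, 0.186 and 0.161 in K10-spastin and 0.0850, 0.0876 and 0.0859 in control, with no overlap, a log2 difference of 1.05 in an exact two-sided permutation test (p = 0.1, the smallest that 3 against 3 samples allow).

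HSP70 chaperones bind short hydrophobic stretches of unfolded chains. Hspa8, the constitutive cytosolic form, had 562, 1041 and 781 FPKM in K10-spastin and 612, 439 and 439 FPKM in control, and K10-spastin 1 lay below control 1. Its log2 change was 0.65 ± 0.25 (limma adjusted p = 0.121). The stress-inducible Hspa1a averaged 166 ± 43.5 FPKM in K10-spastin and 114 ± 12.7 FPKM in control, and Hspa1b averaged 369 ± 85.0 FPKM in K10-spastin and 291 ± 52.9 FPKM in control (SD, n = 3 each). Neither passed (limma adjusted p = 0.121 and 0.303). All 3 K10-spastin libraries of Hspa1a lay above all 3 control libraries, while the groups of Hspa1b overlapped. The transcripts of Hspa1a and Hspa1b are 99.2% identical over 2201 bases, so the split of fragments between them is uncertain. Their sum relative to Hspa8 was 0.807, 0.657 and 0.602 in K10-spastin and 0.546, 1.05 and 0.957 in control, overlapping ranges (exact two-sided permutation p = 0.5). The inducible-to-constitutive ratio thus separated the groups for HSP90 and not for HSP70.

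Hspa2, a member of the HSP70 family best known from the testis, fell. It had 2.59, 3.39 and 7.0 FPKM in K10-spastin and 20.9, 11.7 and 14.6 FPKM in control, a log2 change of -1.70 ± 0.34 (limma adjusted p = 0.0264). The groups were well apart at a low level, and the call was lost without K10-spastin 2 or any 1 control library. It was also lost with no filter and with the replicate block.

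The HSP110 proteins release nucleotide from HSP70 and so reset its cycle, and with it they can dissolve aggregates. Hsph1 rose and had 79.9, 148 and 99.4 FPKM in K10-spastin against 34.3, 27.1 and 19.5 FPKM in control, a ratio of means of 4.06 and a log2 change of 1.97 ± 0.28 (limma adjusted p = 0.0114). Hspa4l rose and had 27.4, 34.3 and 21.7 FPKM in K10-spastin against 10.3, 9.67 and 11.0 FPKM in control, a log2 change of 1.33 ± 0.19 (limma adjusted p = 0.0120). In both genes the groups were far apart and K10-spastin 2 was highest, and the call of Hspa4l was lost without control 2 or control 3. Hspa4, the third gene of the family, averaged 120 ± 14.6 FPKM in K10-spastin and 95.4 ± 10.5 FPKM in control and did not pass (SD, n = 3 each; limma adjusted p = 0.176).

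The small heat shock proteins bind unfolding proteins without ATP, and in keratinocytes HSPB1 is known to associate with the cytoskeleton. Hspb8, whose protein forms a complex with BAG3 that sends clients to autophagy, had the largest increase of the set. It had 355, 250 and 164 FPKM in K10-spastin and 16.8, 26.6 and 36.8 FPKM in control, a ratio of means of 9.59 and a log2 change of 3.21 ± 0.35 (limma adjusted p = 0.00530). Every K10-spastin library was several times above every control library, K10-spastin 1 most of all. Hspb1, the second most abundant member, had 5169, 3636 and 3280 FPKM in K10-spastin and 1743, 2625 and 2253 FPKM in control. Its groups did not overlap, and its log2 change of 0.86 ± 0.23 was just outside the threshold (limma adjusted p = 0.0525). These were the only chaperones among the members with a positive change that were highest in K10-spastin 1, other than Dnajb6.

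The mitochondrial chaperonin folds imported proteins in a closed chamber, HSP60 (Hspd1) forming the barrel and HSP10 (Hspe1) the lid. Hspd1 rose and had 440, 633 and 567 FPKM in K10-spastin against 330, 285 and 260 FPKM in control, a log2 change of 0.90 ± 0.17 (limma adjusted p = 0.0221). Hspe1 had 198, 351 and 242 FPKM in K10-spastin and 160, 144 and 131 FPKM in control, a log2 change of 0.83 ± 0.21 (limma adjusted p = 0.0513). Neither gene's groups overlapped, and the call of Hspd1 was lost without K10-spastin 2, control 2 or control 3. It was also lost with no filter and with the replicate block. The ratio of Hspe1 to Hspd1 was 0.427 to 0.554 in K10-spastin and 0.484 to 0.504 in control, so the transcripts of lid and barrel kept overlapping proportions. The genes overlap on opposite strands, and the labels do not say whether the counting used strand.

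J-domain proteins bring clients to HSP70 and start its ATPase. Of the 5 here 1 fell and 4 did not pass, where 5.90% of all genes fell. Dnajb1, the major stress-inducible one, fell. It had 95.2, 111 and 140 FPKM in K10-spastin and 233, 371 and 420 FPKM in control, a log2 change of -1.53 ± 0.25 (limma adjusted p = 0.0154). The groups were far apart, with control 1 the lowest of the control libraries. The log2 changes of the others were 0.16 for Dnaja1, -0.01 for Dnaja2, -0.52 for Dnajb4 and 0.26 for Dnajb6, which lay above control without overlap. Hsph1 and Dnajb1, both regarded as HSF1 targets, thus moved in opposite directions, and their ratio was 0.840, 1.34 and 0.708 in K10-spastin and 0.147, 0.0729 and 0.0464 in control. The call of Dnajb1 was lost without control 2 or control 3.

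Genes that are switched on within minutes when tissue is dissociated were read beside the members. In a list of 20 such immediate-early genes, 8 fell, 12 did not pass and 0 rose in K10-spastin, where 5.90% of all genes fell. In the same limma fit 15 of the 20 had an unadjusted p under 0.05, against 31.5% of all genes. Of the 20, 13 lay wholly below control and 1 wholly above, where 24.8% and 15.6% of all genes did. The one above was Ier3, named after its values were seen, with a log2 change of 1.12. The summed level of the 20 was 4979, 4817 and 6385 FPKM in K10-spastin and 8877, 12560 and 15550 FPKM in control. As in Dnajb1, control 1 was the lowest control library in 18 of the 20 genes, against 32.1% of all genes tested and 13 of the 47 members. Fos, one of them, had 639, 796 and 1228 FPKM in K10-spastin and 2329, 2106 and 2470 FPKM in control. Unlike Dnajb1, the stress-inducible members Hsp90aa1, Hspa1a and Hspa1b had positive log2 changes, of 1.56, 0.52 and 0.33, and of these only Hsp90aa1 passed. Markers of fibroblasts summed to 0.791 to 3.03 FPKM in K10-spastin and 6.44 to 42.3 FPKM in control, with 1 of 4 tested falling. Markers of hair placodes summed to 3.57 to 7.53 FPKM in K10-spastin and 13.1 to 22.4 FPKM in control, with 2 of 2 tested falling. Markers of periderm summed to 2.18 to 7.93 FPKM in K10-spastin and 9.50 to 47.8 FPKM in control, with 1 of 4 tested falling. Markers of Langerhans cells and macrophages summed to 12.8 to 39.6 FPKM in K10-spastin and 4.30 to 10.7 FPKM in control, without overlap. Nearly all of that sum was Cd68, a lysosomal protein used as a macrophage marker. It was at 39.0, 17.9 and 12.6 FPKM in K10-spastin and 10.7, 4.73 and 4.01 FPKM in control (limma adjusted p = 0.0610). Adgre1 lay above control at no more than 0.257 FPKM. Ptprc, Csf1r and Tyrobp overlapped and were at no more than 0.158, 0.715 and 0.725 FPKM in any library. Cd207, a marker of Langerhans cells, was listed at 0 in all libraries, as was Cd3e, a marker of T cells. These values of 0 were not taken to show that the cells were absent. The part of these differences in the values of Dnajb1, Hspa2 and the other members was not tested.

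**Figure D3:**
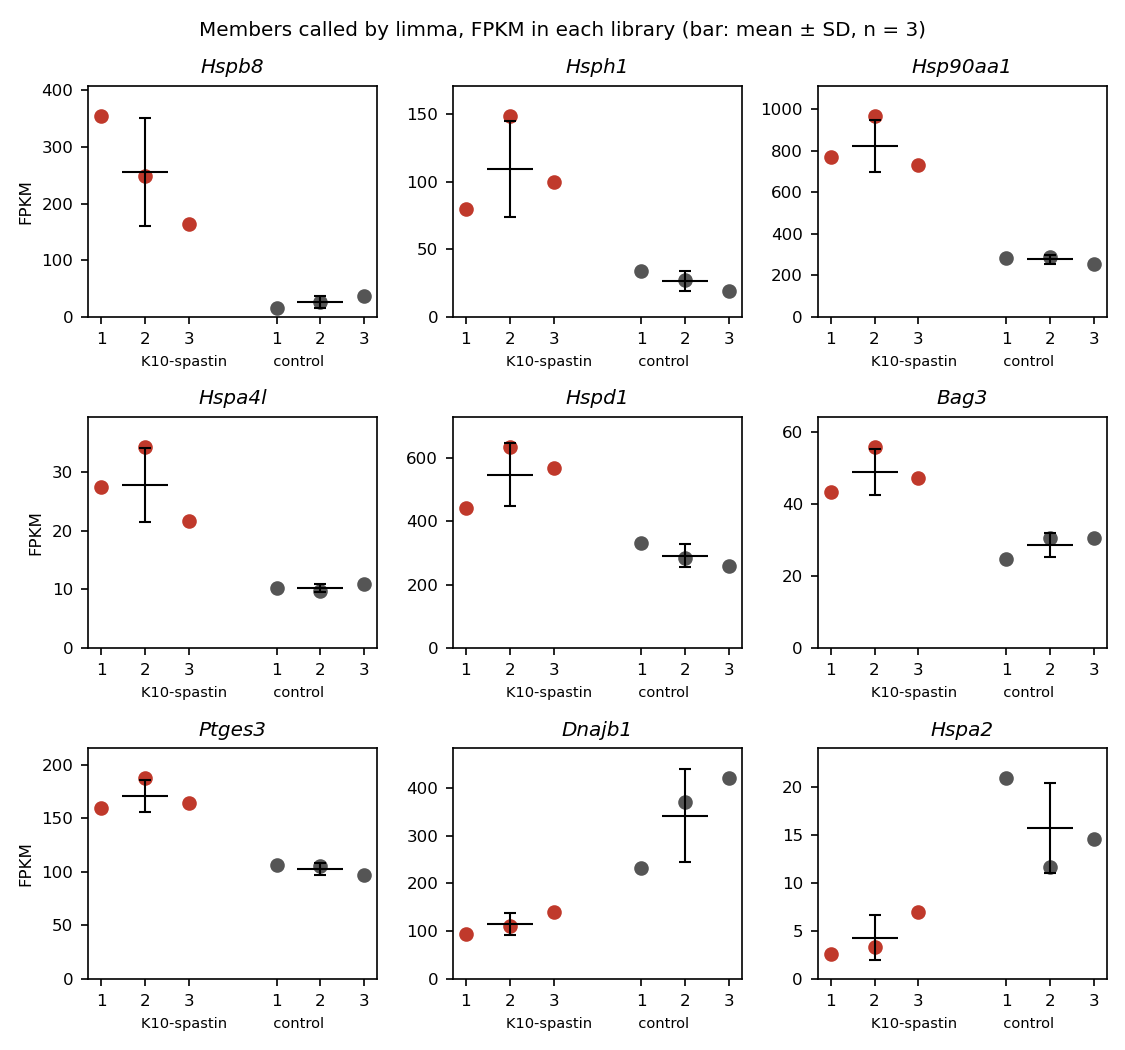
FPKM in each library for the 9 members that rose or fell, K10-spastin on the left (red) and control on the right (grey), with bars at the mean ± SD (n = 3 each). In all 9 panels the groups are separate: 7 genes are higher in K10-spastin, and Dnajb1 and Hspa2 are lower.

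Co-chaperones link HSP70 to HSP90 and set the pace of their cycles, and all 8 had a positive change, with a median log2 change of 0.69. Of the 8, 2 rose, where 5.14% of all genes did. Bag3, which exchanges nucleotide on HSP70 and pairs with HSPB8, had 43.3, 55.8 and 47.3 FPKM in K10-spastin and 24.8, 30.5 and 30.6 FPKM in control, a log2 change of 0.75 ± 0.16 (limma adjusted p = 0.0292). Ptges3, which encodes p23 and stabilises the closed form of HSP90, had 160, 187 and 164 FPKM in K10-spastin and 106, 106 and 96.8 FPKM in control, a log2 change of 0.72 ± 0.12 (limma adjusted p = 0.0161). Both genes had narrow groups that did not overlap. The call of Bag3 was lost without K10-spastin 2 or any 1 control library, and that of Ptges3 without control 2 or control 3. With the replicate block both calls were lost. Stip1 (HOP, which hands clients from HSP70 to HSP90), Chordc1 (an HSP90 co-chaperone) and St13 (HIP, which slows HSP70) also had groups that did not overlap, with log2 changes of 0.75, 0.74 and 0.51 and limma adjusted p-values of 0.0564, 0.0551 and 0.0561. Ahsa1, an activator of the HSP90 ATPase, and Fkbp4, an HSP90-binding prolyl isomerase, overlapped through K10-spastin 1, and their log2 changes were 0.67 ± 0.24 and 0.44 ± 0.24. Cdc37, which brings kinases to HSP90, had the smallest change, 0.16 ± 0.13. In all 8 genes K10-spastin 2 was the highest and K10-spastin 1 the lowest of the K10-spastin libraries.

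That order of libraries ran through much of the set. K10-spastin 2 was the highest K10-spastin library in 33 of 47 members, against 48.6% of all genes tested, and K10-spastin 1 was the lowest in 37 of 47, against 63.8%. K10-spastin 1 had the highest Spast and Hspb8 and the lowest Hsf1, Hspa8 and TRiC values of its group. The median-of-ratios factors were 0.826, 1.07 and 1.02 for K10-spastin libraries 1 to 3 and 1.08, 1.03 and 1.01 for control libraries 1 to 3, so the factor of K10-spastin 1 was the farthest from 1.

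**Figure D4:**
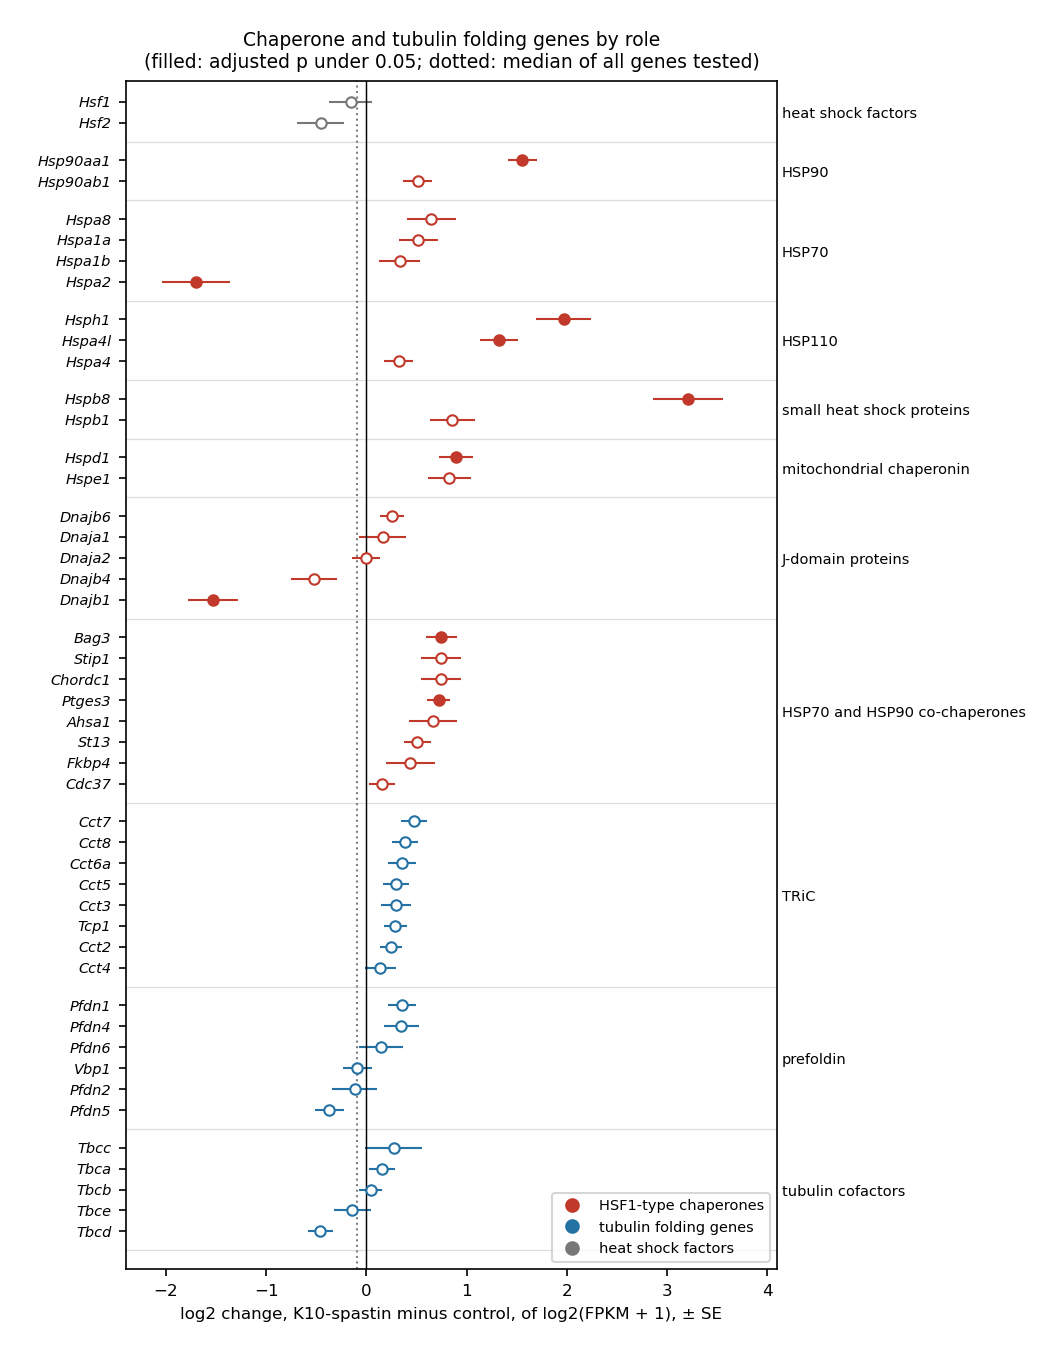
Log2 change of each of the 47 members, K10-spastin minus control on log2(FPKM + 1), with its SE, by role. Filled points passed at an adjusted p under 0.05, and the dotted line is the median of all genes tested, -0.09. The 8 TRiC genes sit between 0.14 and 0.48 with none filled, while HSP110, HSP90 and small heat shock proteins hold the points farthest to the right.

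The TRiC chaperonin is built from 8 different subunits, and all 8 genes had small positive changes, of 0.14 (Cct4) to 0.48 (Cct7) on the log2 scale. None passed (limma adjusted p of 0.0608 to 0.585), and 4 of 8 had an unadjusted p under 0.05, against 31.5% of all genes. In 6 of the 8 all K10-spastin libraries lay above all control libraries, where 15.6% of all genes did so. Cct5, the subunit with the highest level, had 319, 392.2 and 384 FPKM in K10-spastin and 318, 300 and 272 FPKM in control. Its K10-spastin 1 and control 1 values were nearly equal. Cct7 averaged 173 ± 22.7 FPKM in K10-spastin and 123 ± 5.40 FPKM in control, and Cct8 averaged 326 ± 26.9 FPKM in K10-spastin and 250 ± 27.5 FPKM in control (SD, n = 3 each). Summed over the 8 subunits, TRiC was at 1596, 1978 and 1907 FPKM in K10-spastin and 1569, 1454 and 1376 FPKM in control, a log2 difference of 0.31 (exact two-sided permutation p = 0.1, the smallest possible). After median-of-ratios scaling 6 of the 8 rose, and with array weights 7 did, where 6.51% and 13.9% of all genes did. The direction of all 8 was the same in every one of the 16 alternatives. The filters, variance settings and replicate block cannot change a log2 change, so they say nothing about direction. Cct4 came as low as 0.005 among the alternatives.

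The share of each subunit in the TRiC sum differed little for most of them. Cct5 made up 19.98% of the TRiC sum in K10-spastin and 20.2% in control, Cct8 17.9% in K10-spastin and 17.0% in control, and Tcp1 10.7% in K10-spastin and 10.9% in control. The largest differences in share were those of Cct4 and Cct7, and in both the groups did not overlap. Cct4 made up 8.97%, 10.28% and 9.92% in K10-spastin and 10.83%, 10.45% and 11.59% in control, and Cct7 made up 9.32%, 9.80% and 9.22% in K10-spastin and 8.26%, 8.28% and 8.73% in control. In the assembled rings the subunits are present in equal number, which the transcript levels per length were not. Cct6a, Cct7, Cct8 and Tcp1 overlap expressed genes on the opposite strand.

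Prefoldin and the cofactors did not share a direction. Of the 6 prefoldin genes 3 had a positive and 3 a negative change, and 0 passed in limma. An unadjusted p under 0.05 was reached by 2 of them, where 31.5% of all genes reached it. Pfdn1 and Pfdn4 lay above control without overlap, with log2 changes of 0.36 and 0.35. Pfdn5 lay below without overlap, at 69.7 ± 10.5 FPKM in K10-spastin and 89.7 ± 4.86 FPKM in control (SD, n = 3 each), a log2 change of -0.37 ± 0.15 (limma adjusted p = 0.135). Pfdn2, Vbp1 (prefoldin subunit 3) and Pfdn6 changed by -0.12, -0.09 and 0.15 with overlapping groups. Their sum was 229, 316 and 299 FPKM in K10-spastin and 280, 285 and 278 FPKM in control, on both sides of the control range. After median-of-ratios scaling it was 277.7, 295.5 and 293.8 FPKM in K10-spastin and 260.3, 276.7 and 274.6 FPKM in control, which no longer overlapped (log2 difference 0.10, exact two-sided permutation p = 0.1, the smallest possible).

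Of the 5 tubulin cofactor genes 0 passed in limma and 1 had an unadjusted p under 0.05, where 31.5% of all genes did. Tbcd, whose protein takes up beta-tubulin and can also take apart the heterodimer, lay below control without overlap, at 30.4 ± 2.0 FPKM in K10-spastin and 42.2 ± 1.22 FPKM in control (SD, n = 3 each). Its log2 change was -0.46 ± 0.12 and its limma adjusted p 0.0561. The change was past the threshold after quantile normalization, with array weights and without K10-spastin 1. Tbca, which holds beta-tubulin, and Tbcb, which holds alpha-tubulin, had log2 changes of 0.16 ± 0.13 and 0.04 ± 0.11. Tbce, a partner in joining the chains, had -0.14 ± 0.18, and Tbcc, which releases the finished heterodimer and was the lowest tubulin folding gene at 4.1 to 9.15 FPKM, had 0.27 ± 0.29. The sum of the 5 was 248, 265 and 261 FPKM in K10-spastin and 250, 272 and 238 FPKM in control, an overlap (exact two-sided permutation p = 0.8).

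The levels of tubulin, the client of this machinery, are given as a description with no test, since the list of 12 tubulin genes was chosen after their values were seen. Their sum was 3327, 2477 and 2367 FPKM in K10-spastin and 1523, 1434 and 1470 FPKM in control. The ratio of summed TRiC to summed tubulin transcripts was 0.480, 0.799 and 0.806 in K10-spastin and 1.03, 1.01 and 0.936 in control. The ratio was lowest in K10-spastin 1, the library with the highest Spast and the highest tubulin sum.

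**Figure D5:**
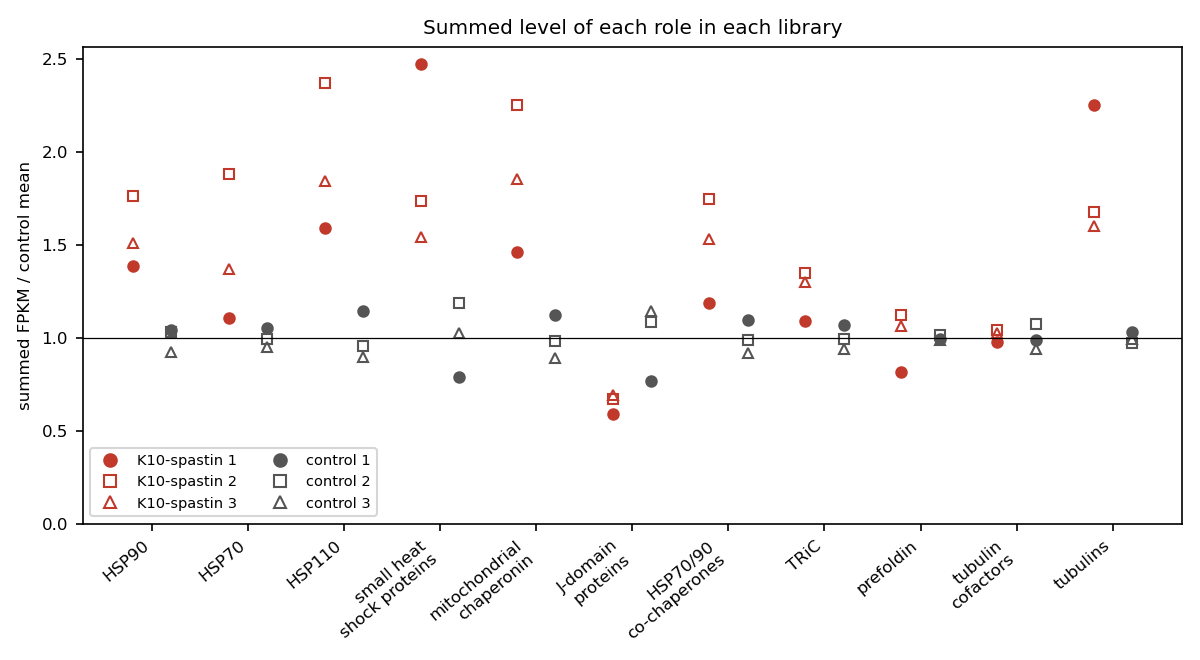
Summed FPKM of the genes of each role in each library, divided by the control mean of that role (vertical axis, from 0). K10-spastin libraries (red) stand left of control libraries (grey). HSP90, HSP70, HSP110, small heat shock proteins, mitochondrial chaperonin, co-chaperones, TRiC and tubulins lie wholly above control, J-domain proteins lie wholly below through Dnajb1 (without it their sums overlap), and prefoldin and tubulin cofactors overlap.

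By role, the largest summed differences were in HSP110 (log2 difference 0.94), small heat shock proteins (0.93) and the mitochondrial chaperonin (0.88). HSP90 had 0.63, the co-chaperones 0.56 and HSP70 0.51. J-domain proteins had -0.60. Each of these sums separated the groups and reached the smallest exact two-sided permutation p that the design allows, 0.1. Some sums were mostly 1 gene. In K10-spastin Hspb1 averaged 4028 FPKM of a small heat shock protein sum of 4284 FPKM. Hsp90ab1 averaged 4608 FPKM of an HSP90 sum of 5431 FPKM. Neither Hspb1 nor Hsp90ab1 passed on its own. The J-domain difference was that of Dnajb1: without it the sum of the other 4 was 266.6, 301.5 and 284.6 FPKM in K10-spastin and 238.0, 294.9 and 279.6 FPKM in control, which overlapped (log2 difference 0.07, exact two-sided permutation p = 0.6). HSP70 was at 1018, 1728 and 1257 FPKM in K10-spastin and 967, 913 and 873 FPKM in control. K10-spastin 1 was only slightly above control 1 there, as it was for TRiC.

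Other genes of the same pathways were read from lists that were written with earlier results of these data known. For these lists and those that follow, the shares over all genes tested were 5.14% rising and 5.90% falling. In the same limma fit 31.5% of all genes had an unadjusted p under 0.05. Of 7 further small heat shock proteins 3 could be tested, and Cryab (alpha B-crystallin, which protects intermediate filaments) rose. It had 47.9, 20.6 and 15.0 FPKM in K10-spastin and 0.525, 1.11 and 1.43 FPKM in control, a log2 change of 3.69 ± 0.41 (limma adjusted p = 0.00557). As in Hspb8, every K10-spastin library was many times above every control library and K10-spastin 1 was highest. Of 18 further HSP90 co-chaperones tested 2 rose and 0 fell (limma; 8 at an unadjusted p under 0.05). Ahsa2, a relative of Ahsa1, had 4.37, 6.68 and 5.21 FPKM in K10-spastin and 2.02, 1.66 and 1.37 FPKM in control, and Cacybp, which binds the ubiquitin ligase SIAH1, had 44.4, 62.3 and 56.2 FPKM in K10-spastin and 32.8, 30.3 and 24.9 FPKM in control. Of 18 further J-domain and HSP70-family genes tested, Dnajb2 rose (log2 change 0.74 ± 0.17, limma adjusted p = 0.0407) and Hspa12a fell (-1.36 ± 0.31, limma adjusted p = 0.0368). The call of Ahsa2 was lost without control 2 or control 3, and Dnajb2 was called in 2 of the 6 fits that left out 1 library. In those fits Cacybp was called only without K10-spastin 1 and Hspa12a only without K10-spastin 3. The calls of Ahsa2, Dnajb2, Cacybp and Hspa12a were all lost with no filter and with the replicate block. That of Dnajb2 was also lost after quantile normalization and with no trend in limma.

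Among 10 further heat shock response genes tested 0 rose and 1 fell (limma; 3 at an unadjusted p under 0.05). The one that fell was the ubiquitin gene Ubb, at 555, 464 and 457 FPKM in K10-spastin and 708, 689 and 786 FPKM in control (log2 change -0.57 ± 0.13, limma adjusted p = 0.0362). Of 18 chaperones of the endoplasmic reticulum and mitochondria outside the set 2 rose and 0 fell (limma; 9 at an unadjusted p under 0.05). They were Hsp90b1, the HSP90 of the endoplasmic reticulum, with a log2 change of 0.63 ± 0.14, and Dnajb11, a J-domain partner of BiP, with 0.49 ± 0.11. Ubb, Hsp90b1 and Dnajb11 were each called in 1 of the 6 fits that left out 1 library, the one without K10-spastin 1. In none of the 3 genes did the call hold with the replicate block or with no trend in limma. The calls of Ubb and Hsp90b1 were also lost with no filter, and that of Ubb after median-of-ratios scaling. Hspa5, which encodes BiP, had 0.28 (limma adjusted p = 0.308). Of 16 further TRiC and tubulin folding genes tested 0 passed (limma; 4 at an unadjusted p under 0.05). The smallest p there was that of Ttc5, whose protein takes part in tubulin autoregulation by starting the decay of tubulin messages when free tubulin is abundant, with a log2 change of -0.70 and a limma adjusted p of 0.0607.

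The promoter letters and the changes were set side by side as a description. Of the 7 members that rose, 6 have a window, 4 hold a 2-unit element (Hspb8, Hsph1, Hspd1 and Bag3) and 2 of these, Hsph1 and Hspd1, a 3-unit element. Dnajb1 and Hspa2, the members that fell, have windows with no exact match of either kind. Of the 32 members with a window that did not pass, 13 hold a 2-unit element and 3 a 3-unit element, so the element was found in members on both sides of the threshold. Among all tested genes with a window, 13.5% held a 2-unit and 0.5% a 3-unit element.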

How the data were processed

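RNA was measured in 6 libraries, 3 K10-spastin and 3 control, of sorted epidermal cells. The authors deposited 1 table of FPKM with 35275 Ensembl identifiers, and per the submitters' processing notes CASAVA and TopHat2 were used. The counter, genome build and annotation, and the use of strand, were not given in the sources used here. A table of gene names matched 34490 identifiers and left 785 unmatched.

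FPKM are not counts, so count models were not used. Genes whose mean FPKM over all 6 libraries was 1 or more entered the test, on log2(FPKM + 1) with limma 3.58.1 in R 4.3.3 (lmFit, eBayes with a trend, two-sided, Benjamini-Hochberg over 11071 genes, called at an adjusted p under 0.05), after the method was tested on simulated data. Sums and ratios were compared with an exact two-sided permutation test. The members and lists were chosen with earlier results of these data known. All 47 members could be named. Values in every library are given for called members, the 10 largest changes and the 6 highest means, and also for the heat shock factors, which were added after their values were seen. From each other list up to 4 genes could be named, 2 by smallest p and 2 by highest mean.

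Depth was read from 14953 genes with 1 annotated transcript (GENCODE release M21), and 90.6% to 91.6% of the values of at most 20 fragments lay within 0.05 of a whole number, which bears on counting error only. Near-identical transcripts, found with BLAST 2.17.0 (identity from 90%, length from 200 bases), exist for 16 members. Apart from Hspa1a and Hspa1b, the copies with an FPKM value summed to at most 1.79 FPKM per member. Other copies had no value in the data. Among them was a protein-coding copy of Hspe1, 99.0% identical over 515 bases. Promoter windows came from RefSeq on GRCm38.p6, and a gene was counted if any of its windows held the element. Alternatives were pseudocounts of 0.1 and 0.5, no filter, a filter at 5 FPKM, median-of-ratios scaling, quantile normalization, array weights, robust variances, no trend in limma, a replicate block, and each library left out. Python 3.11.15, scipy 1.17.1, numpy 2.4.6, pandas 2.3.3 and matplotlib 3.10.9 were used for the rest.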

Additional observations from a re-analysis of the deposited data

How the results depend on the processing

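Hspb8, Hsph1 and Hsp90aa1 rose in each of the 16 alternatives. The difference of class medians was between 0.30 and 0.43, and only quantile normalization, array weights and leaving out a library moved it from 0.338. Of all genes tested, 569 rose and 653 fell as deposited, 319 and 348 with no filter, 1535 and 1771 with array weights, and 113 to 691 rose and 32 to 701 fell with each library left out. A filter at 5 FPKM gave 414 that fell. Of the members, 7 rose and 2 fell as deposited, 21 rose after median-of-ratios scaling, 26 rose and 5 fell with array weights, 4 fell after quantile normalization, 1 fell with no filter, and 3 to 17 rose and 0 to 3 fell with each library left out. Of the chaperones, 15 rose after median-of-ratios scaling and 17 with array weights, 1 fell with no filter, and 3 to 15 rose and 0 to 2 fell with each library left out. Of the tubulin folding genes, 6 rose after median-of-ratios scaling, 9 rose and 2 fell with array weights, 2 fell after quantile normalization, and 0 to 2 rose and 0 to 1 fell with each library left out. The cause of these shifts was not tested.

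With the replicate number as a block, 274 of all genes rose and 218 fell, 4 members rose and 1 fell, and among chaperones 4 rose and 1 fell. Libraries of the same number did not deviate together: the correlations of their deviations were -0.128, -0.378 and -0.047, so the numbers were not taken to pair the samples.

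Small values changed sign under some settings. With each library left out, the log2 difference of summed prefoldin ranged between -0.101 and 0.130 and that of summed cofactors between -0.0181 and 0.0788, and prefoldin had 0.0953 after median-of-ratios scaling, where its groups no longer overlapped. The J-domain sum without Dnajb1, a setting chosen after seeing the data, had 0.074. With each library left out, the log2 change ranged between -0.345 and 0.0562 for Hsf1, -0.0212 and 0.389 for Dnaja1, -0.0829 and 0.0849 for Dnaja2, -0.326 and 0.116 for Pfdn2, -0.173 and 0.0109 for Vbp1, -0.000362 and 0.398 for Pfdn6, and -0.118 and 0.114 for Bag6, a chaperone of the BAG family. After median-of-ratios scaling Dnaja2 had 0.0984, Vbp1 0.0138 and Bag6 0.0917. With array weights Dnaja2 had 0.0893, Bag6 0.0712 and Sqstm1, an autophagy receptor, -0.00887, and Tbcb had -0.0333 after quantile normalization.

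With 3 libraries a group, the exact tests could not go below 0.1, and without 1 library not below 0.2. The depth of 16.0 to 22.5 M fragments was ample for most members and least so for Hsf2, Hspa2 and Tbcc.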
